A study of Saccharomyces cerevisiae with 6 samples.

Results

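The stretches that lie more than 20 and less than 50 kb from the centromere were examined on 11 yeast chromosomes, II, IV, V, VII, VIII, X, XI, XII, XIII, XIV and XVI, for changes in the meiotic cohesin subunit Rec8. The members were the bins of 20 bp in the authors' deposited table whose middle fell in these limits, 360 of the 14224 bins listed (2.53%), on 22 chromosome arms with 660 kb of sequence in the zones. Rec8 was mapped by ChEC-seq, in which a protein fused to micrococcal nuclease (MNase) cuts the DNA beside it once calcium is added, and the released fragments are sequenced. The cultures were 3 ctf19-9A diploids and, set against them, 3 WT diploids. All 6 carried Rec8-3xFLAG-MNase, lacked NDT80, and so were held in meiotic prophase I. Each culture came from the colony of a separate zygote, and growth was at 30 °C. It spent about 16 h in YP acetate and 4.5 h in 1% potassium acetate, and was given 2 mM CaCl2 for 5 min. The labels name the strain background X and Y without saying what the letters stand for.

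The table gives 1 comparison of the genotypes and no value for a single culture, so the depth and spread of each culture are unknown and no test of samples was made here. The table lists bins whose false discovery rate (FDR) in the authors' test was under 0.05. The rank and p-value of the last bin imply 154927 tested bins, of which 9.18% were listed, 3.6% with a negative and 5.58% with a positive log2 fold change. The sources used here do not say which bins these were, and the members are all listed bins by construction, so shares below are of all 20 bp bins of a stretch. The headers do not say which genotype is on top of the ratio. It is likely ctf19-9A over WT, a reading that rests on the known role of Ctf19 in bringing the cohesin loader to centromeres, where nearly all values are negative, and on no label. A negative value then means less Rec8 cleavage in ctf19-9A. If the sign is turned, every direction swaps. Standard errors (SE) were derived from the fold change and p-value of each bin. Bins beside each other share fragments and are not independent.

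Cohesin is the ring that holds sister chromatids together, and Rec8 is its meiotic kleisin, the subunit that closes the ring. At budding yeast centromeres the kinetochore protein Ctf19, when phosphorylated on its N-terminal tail, binds the loader Scc2-Scc4, and ctf19-9A is known as an allele in which phosphorylated residues of this tail are replaced by alanine. Rings loaded at the centromere move outward into the flanking chromatin, the pericentromere, and gather between genes that face each other. Along the arms, cohesin is likewise known to gather in such convergent intergenic sites, loaded without the kinetochore. Whether the inner part of the zones examined belongs to the pericentromere depends on where its edge is drawn.

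The zones held few listed bins, and their sign changed with distance. Negative bins numbered 187 and positive bins 173, together 1.09% of the 33000 bins of zone sequence. Over all 16 chromosomes the like share was 2.36% of 603073 bins. As only 154927 bins were implied to be tested, unlisted sequence includes bins that were never tested and cannot be read as unchanged. On the same 11 chromosomes, 20.1% of bins within 20 kb of a centromere were listed, 99.1% of them negative, and 1.47% of bins at 50 kb or more, all 6340 positive. Of the negative zone bins 98.9% (185) lay between 20 and 25 kb, with 12 positive bins in the same 5 kb. From 25 to 50 kb there were 2 negative and 161 positive bins. Negative bins thus stopped within the inner part of the zones, whereas positive ones were spread outward. Positive bins made up 0.218% of sequence at 20 to 25 kb, 0.2% at 25 to 30 kb, 0.6% at 30 to 35 kb, 0.127% at 35 to 40 kb, 0.673% at 40 to 45 kb and 1.33% at 45 to 50 kb. The share beyond the zones was 1.04% at 50 to 55 kb and 2.53% at 55 to 60 kb, so it was lower in most of the zone than outside it. These differences in share were not tested, since the bins are not independent.

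**Figure D1:**
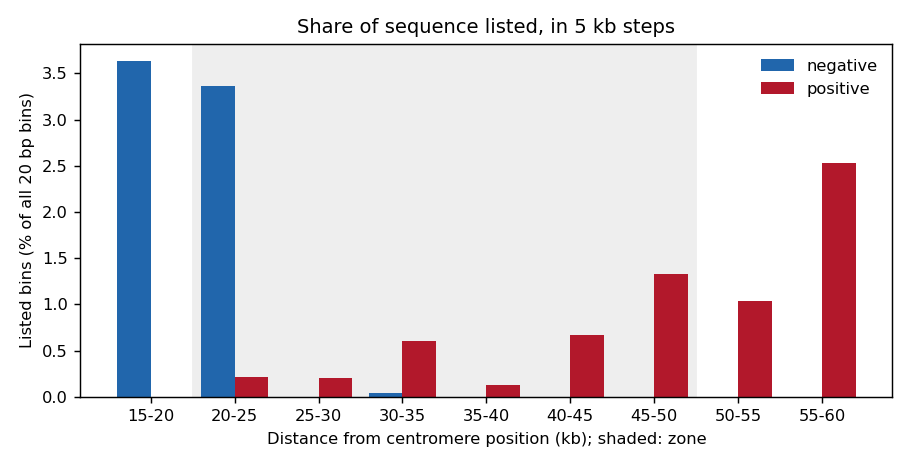
Share of all 20 bp bins that the authors' table lists, by sign, in steps of 5 kb from the centromere position, pooled over the 22 arms, with the zones shaded. Negative bins make up 3.36% of the step from 20 to 25 kb and at most 0.0364% of each later step, and positive bins reach 1.33% at 45 to 50 kb.

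Among listed bins, the values differed in size between the signs, in part through chromosome VII. The log2 fold change of negative zone bins ran from -1.13 to -0.48, with quartiles of -0.85 and -0.61 around a median of -0.70, and their median SE was 0.20. Without chromosome VII the negative median was -0.62 and the median SE 0.19. The log2 fold change of positive zone bins ran from 0.38 to 0.86, with quartiles of 0.48 and 0.58 around a median of 0.52, and their median SE was 0.16. A bin with a larger SE needs a larger value to be listed, and the part of this in the difference in size was not tested. An FDR under 0.01 was reached by 99 negative bins (52.9%) and by 30 positive ones (17.3%). Over all listed bins of the genome, 63.4% of the negative and 18.5% of the positive ones reached it, and within 20 kb of a centromere 69.3% of the negative ones did, so the zone shares were no higher than those. Of the bins implied to be tested, 2.28% were negative and 1.03% positive at that threshold. For comparison, the median was -0.76 over the 4383 negative bins within 20 kb and 0.55 over the 6340 positive bins at 50 kb or more. Since only bins past the authors' threshold are listed, these medians overstate the average change of the sequence.

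**Figure D2:**
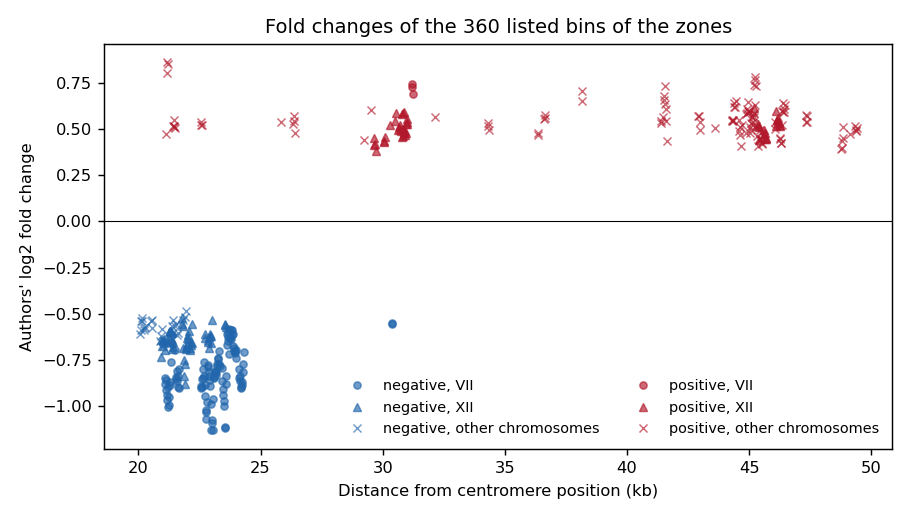
The authors' log2 fold change of each of the 360 listed zone bins against its distance from the centromere position, with chromosomes VII and XII marked by shape. Negative bins lie at 20.1 to 24.3 kb except for 2 bins at 30.4 kb, and the lowest ones, down to -1.13, are on VII.

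At the edges of the zones the medians of the listed bins were close, while the numbers of bins differed. All these bins passed the same threshold, so their medians say little about a change at the edge. Between 19 and 20 kb, just outside, lay 46 negative bins on 3 arms with a median of -0.59, and between 20 and 21 kb, just inside, 17 negative bins on 3 arms with a median of -0.58. The 3 arms were not the same ones. In these steps the right arm of II had negative bins only outside the zone, and the right arm of X only inside. Between 49 and 50 kb lay 5 positive bins on 2 arms with a median of 0.50. Between 50 and 51 kb lay 14 positive bins on 4 arms with a median of 0.56. The centromere positions of the rule equalled, to within 0.5 bp, the midpoint between the innermost left-arm and right-arm genes. Those gaps are 630 to 2541 bp long, so distances are uncertain by up to 315 to 1270.5 bp, depending on the chromosome.

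On each of the 22 arms the outermost negative bin within 50 kb lay closer to the centromere than the innermost positive bin more than 1 kb from it. The limit of 1 kb leaves out 40 positive bins on 12 arms, all within 0.52 kb of the centromere position and inward of the negative bins, so with them the order outward was positive, negative, positive. The outermost negative bin lay 7.26 to 30.4 kb from the centromere, with a median of 17.0 kb, and the innermost positive bin 21.1 to 104.2 kb, with a median of 37.4 kb. The stretch between them, in which no bin was listed, was 5.6 to 82.3 kb long, with a median of 23.0 kb. Of the 15 arms without a negative zone bin, the right arm of II came nearest, with its outermost one in IPP1 at 19.8 kb, and the right arm of VIII stopped first, in NEM1 at 7.26 kb. The shortest unlisted stretch was on the left arm of X, from the intergenic stretch beside NOP9 to MAD3, followed by 6.02 kb on the left arm of XII, 6.14 kb on the left arm of XVI and 6.88 kb on the left arm of VII. The longest was on the right arm of X, from SPC1 to the stretch beside HIT1. Within the zones 5 arms held bins of both signs, 2 only negative, 10 only positive and 5 none, namely the left arms of II and XI, the right arm of V and both arms of XIV. On 7 arms the first positive bin lay beyond the zone.

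**Figure D3:**
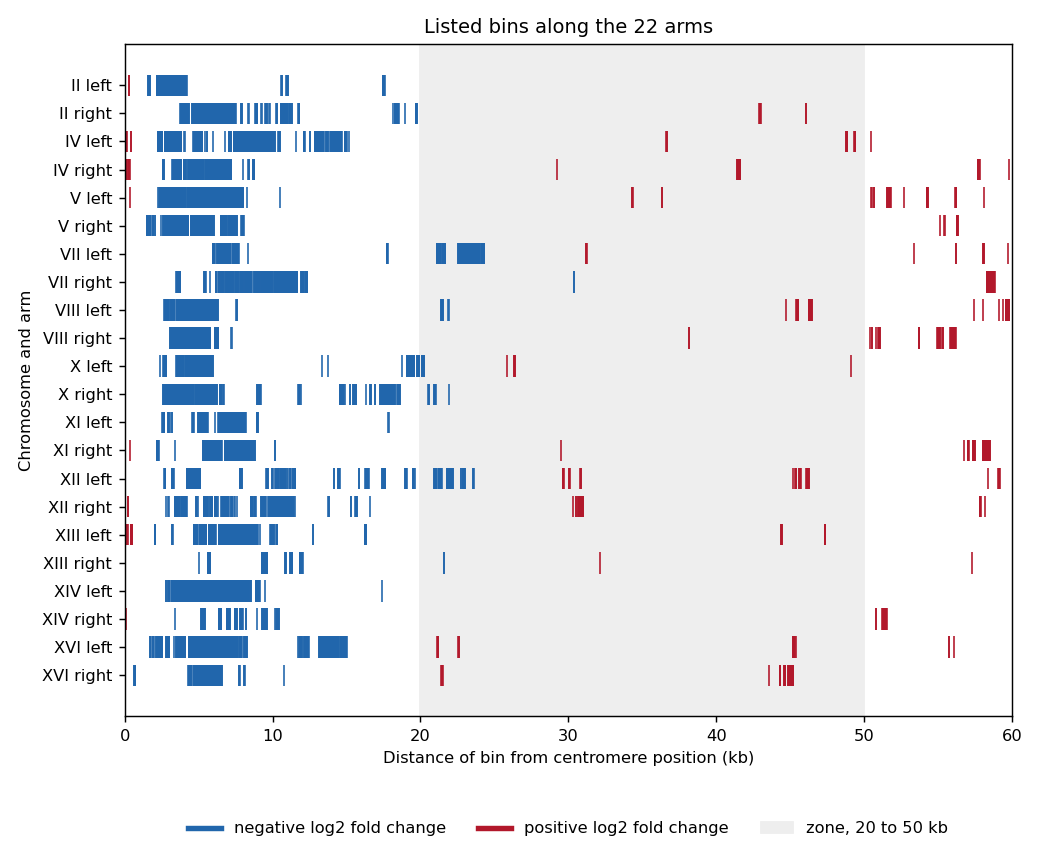
Listed bins on the 22 arms by distance from the centromere position up to 60 kb, 1 line per bin, coloured by sign, with the zones shaded. Negative bins enter the zones on 7 arms and positive bins on 15, and on every arm the negative bins lie closer to the centromere than the positive ones beyond 1 kb.

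Most of the negative zone bins came from a single place, the ERG4 to MPO1 stretch on the left arm of chromosome VII (R64 coordinates here and below). It held 106 of the 187, 56.7%, and all 11 zone bins with a log2 fold change of -1 or lower. ERG4 (VII: 472855 to 474276), for the enzyme of the last step of ergosterol synthesis, had 67 listed bins covering 94.2% of its length, with a median of -0.82. The lowest bin of the zones lay in ERG4 (473761 to 473780), with a log2 fold change of -1.13 in the authors' deposited table (SE 0.20, FDR 5.5e-06). The negative signal ran on upstream through 14 bins between PDR1 and ERG4, with a median of -0.83, and ended 24.3 kb from the centromere. Downstream of ERG4 no bin was listed for 860 bp, which takes in the 212 bp between ERG4 and SCL1 and most of SCL1.

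A further 25 negative bins followed from 475141 to 475740, 21.1 to 21.7 kb from the centromere. They covered the start of SCL1, for an alpha subunit of the proteasome core, the 297 bp between the divergent genes SCL1 and MPO1, and the start of MPO1, for an enzyme of fatty acid alpha-oxidation. The counts were 5 bins in SCL1 with a median of -0.86, 10 bins in between with a median of -0.78, and 10 bins in MPO1 with a median of -0.93. The lowest MPO1 bin was -1.0 in the authors' deposited table (SE 0.20, FDR 5.9e-05). On this arm the zone held more negative bins than the 20 kb inside it, 106 against 81, and a lower minimum, -1.13 against -0.77. The nearest listed bin inward was 3.3 kb away, between LEU1 and PMA1. On the other 6 arms with negative zone bins, the 20 kb inside held 52 to 295 negative bins, more than the zone in each case, and reached lower values.

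Chromosome XII carried the other large group, 53 negative bins (28.3%) at 20.9 to 23.6 kb on its left arm. They lay in 3 neighbouring genes, YEH1, a steryl ester hydrolase gene, with 3 bins, SOF1, for a protein needed for 18S ribosomal RNA processing, with 32, and PSR1, for a plasma membrane phosphatase of the sodium stress response, with 18. SOF1 had a median of -0.65 and a lowest bin (128861 to 128880) of -0.88 in the authors' deposited table (SE 0.18, FDR 0.00012). PSR1 had a median of -0.65, and each of its 18 bins was closer to the 3′ end. SOF1 and PSR1 face each other, yet the 337 bp between them held no listed bin, although bins were listed on either side of it. Likewise the 267 bp between YEH1 and SOF1 held none.

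The remaining 28 negative zone bins were small in size and near the threshold. On the right arm of X, MET3, for ATP sulfurylase of sulfate assimilation, had 8 bins at 20.53 to 21.03 kb with a median of -0.60, and SPC1, for a signal peptidase subunit, had 1 of -0.48 in the authors' deposited table (FDR 0.040). On the left arm of X, 8 bins between the tRNA gene YNCJ0019C and NOP9, for a protein of small ribosomal subunit synthesis, had a median of -0.57. They continued, after 0.14 kb, a group that began inside 20 kb. On the left arm of VIII, YAP3, for a bZIP transcription factor, held 4 bins and ETP1 1, with 2 more in between, and these 7 had a median of -0.55, 13.8 kb outward of the nearest negative bin. The right arm of XIII had 2 bins between HXT2, for a glucose transporter, and the tRNA gene YNCM0010W, the lower with -0.62 in the authors' deposited table (SE 0.22, FDR 0.048). The outermost negative bins of all were 2 in VMA7, for a subunit of the vacuolar proton pump, on the right arm of VII at 30.4 kb, the lower with -0.55 in the authors' deposited table (SE 0.19, FDR 0.044). They stood 18.02 kb from the nearest negative bin inward, in SEC9. The lowest FDR among these 28 bins was 0.023, so none would be listed at a threshold of 0.01.

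Positive zone bins were spread over more places. Joining same-sign bins that began no more than 500 bp apart gave 29 positive and 11 negative regions. A positive region had a median of 4 bins and 80 bp, and a negative one 8 bins and 300 bp. The 3 regions with the most bins held 77.5% of the negative but 39.3% of the positive bins. The most positive bins per chromosome were 50 on XII, 49 on XVI, 23 on IV and 21 on VIII, against 9 on XIII, 6 each on II and X, 5 on V, 3 on VII and 1 on XI. Chromosome XIV had no listed bin of either sign in its zones.

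The highest positive values lay at narrow sites between genes. On the left arm of XVI the divergent stretch between TAF3, for a subunit of the transcription factor TFIID, and RET3, for a coatomer subunit, had 4 bins with a median of 0.83 at 21.1 to 21.2 kb. Its highest bin (534861 to 534880) gave 0.86 in the authors' deposited table (SE 0.18, FDR 0.000283). TAF3 was flanked on its other side too, by 3 bins between the convergent genes RRP12 and TAF3 with a median of 0.52. These, with 5 bins between SUT2 and RPA135 on the right arm of XVI (median 0.51, 21.4 to 21.5 kb), were the positive bins nearest to any of the centromeres beyond 1 kb. XVI held no negative bin in either zone, its outermost ones being at 15.0 kb on the left and 10.8 kb on the right arm.

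Other high sites were farther out. Between RAD1, for a nuclease subunit of nucleotide excision repair, and ECM23 on the left arm of XVI, 8 bins at 45.2 to 45.4 kb had a median of 0.66 and a highest value of 0.78 in the authors' deposited table (SE 0.19, FDR 0.0019). Between BIL2 and PUF4, for a Pumilio RNA-binding protein, on the left arm of VII, 3 bins at 31.2 kb reached 0.74 in the authors' deposited table (SE 0.22, FDR 0.016), 6.88 kb outward of the ERG4 stretch. On the right arm of IV, 10 bins between SES1, for seryl-tRNA synthetase, and the ribosomal protein gene RPS11A had a median of 0.59 and a highest value of 0.73 in the authors' deposited table (SE 0.18, FDR 0.0021). The divergent stretch between DED81, for asparaginyl-tRNA synthetase, and YHR020W on the right arm of VIII held 2 bins, the higher with 0.71 in the authors' deposited table (SE 0.23, FDR 0.032). Between RPS18B and YML6 on the left arm of XIII, 4 bins had a median of 0.63 with FDRs close to the threshold.

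Several of the wider positive regions sat where genes end. AGC1, for a mitochondrial aspartate-glutamate carrier, had 23 bins on the right arm of XVI at 44.6 to 45.2 kb, all beyond 77.1% of its length from the 5′ end, with a median of 0.57. A further 5 bins lay between ATP20 and AGC1, which face each other, with a median of 0.54. The AGC1 bin with the highest value (601001 to 601020) gave 0.65 in the authors' deposited table (SE 0.15, FDR 0.0008). SPA2, for a polarity scaffold protein, had 15 bins on the left arm of XII near its 3′ end, with a median of 0.52, and 5 more lay in the convergent stretch after it. On the right arm of XII, 13 bins filled most of the 307 bp between PSR2 and YEH2, with a median of 0.49, with 6 bins in the end of PSR2 and 1 in the end of YEH2. NPR3, for a subunit of a complex that restrains TORC1 signalling, had 18 bins on the left arm of VIII with a median of 0.47, of which 17 lay nearer to the 3′ end. MAD3, a spindle checkpoint gene on the left arm of X, was different in that its 5 bins, at 25.9 to 26.4 kb with a median of 0.54, lay mid-gene, from 34.3% to 69.2% of its length from the 5′ end. They were the nearest positive ones on an arm that also had negative zone bins.

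The other positive places were small. On the left arm of IV, 9 bins at 48.8 to 49.4 kb had a median of 0.49. Of these, 4 lay in ARP2, for an actin-related protein, at 77.8% to 82.4% of its length from the 5′ end. The other 5 lay between ARP2 and MPS1, a spindle checkpoint kinase gene that faces it. On the left arm of XII, 7 bins at the end of BPT1, for a vacuolar ABC transporter, and before EMC6 had a median of 0.43, the lowest of the named positive regions. The 14 positive regions that the naming rule did not pick held 30 bins, 1 to 4 each, with medians from 0.44 to 0.60 and no FDR under 0.019. Among them were 3 bins in RPR1, for the RNA of RNase P, on the left arm of V (median 0.52), 4 between TSA1 and YOX1 on the left arm of XIII (median 0.55) and the sole bin of chromosome XI, between YKR015C and MIC60.

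**Figure D4:**
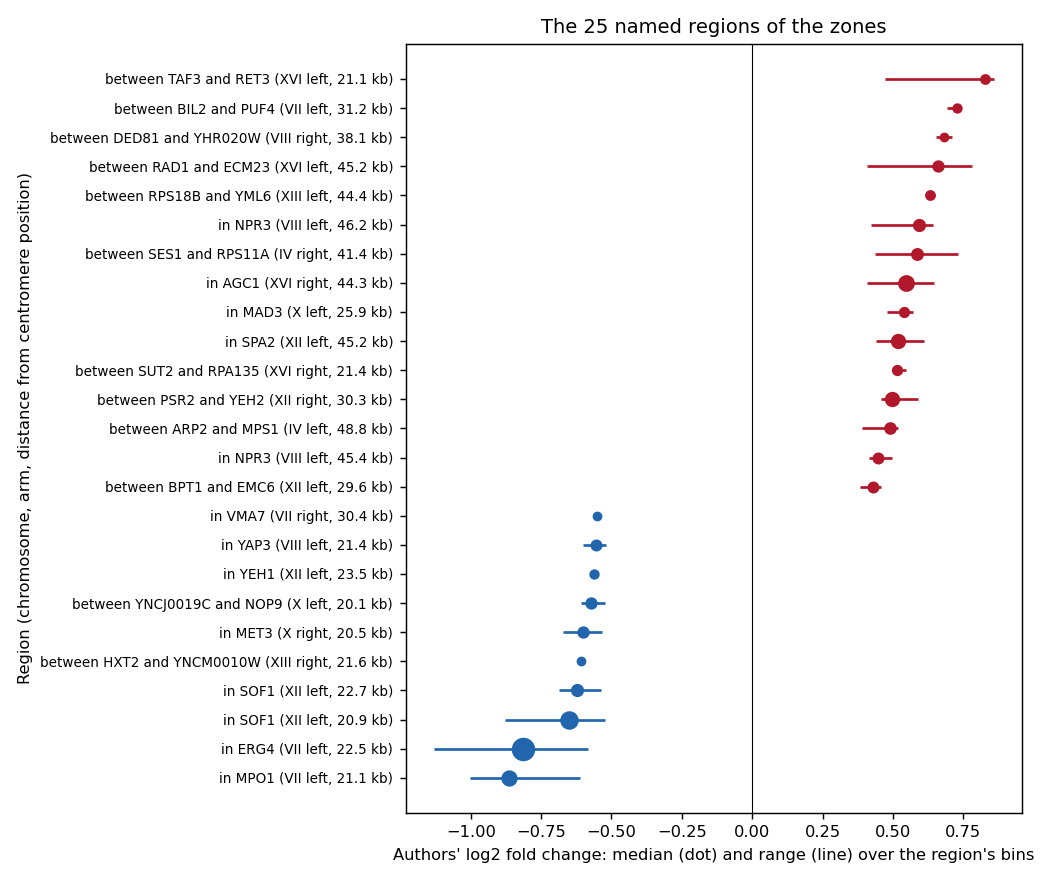
The 25 named regions of the zones, with the median (dot, larger for more bins) and range (line) of the authors' log2 fold change over the bins of each, labelled by the gene or gene pair at its bin of lowest FDR and by its nearest distance from the centromere position. The ERG4 and MPO1 regions on VII have the lowest medians, -0.82 and -0.86, and the TAF3 to RET3 region the highest, 0.83.

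The make-up of the listed bins was set beside that of the zone sequence, as a description with no test. Zone sequence here counts all bins, and the make-up of the bins that were tested is unknown. Its part in the differences below was not tested. Convergent intergenic stretches, bounded by the 3′ ends of both genes, made up 4.15% of zone sequence and held 38 positive bins (21.97%) on 5 chromosomes, and no negative bin. Tandem stretches made up 11.7% of sequence and held 22.5% of positive and 6.42% of negative bins. Genes made up 75.7% and held 49.7% of positive and 80.7% of negative bins. Divergent stretches, with a promoter at each side, made up 8.44% and held 5.78% of positive bins and 12.8% of negative ones, 24 bins that all lay upstream of ERG4 or between SCL1 and MPO1. Positive bins at 50 kb or more had 25.8% in convergent, 25.9% in tandem and 8.14% in divergent stretches. Their share in genes, 39.1%, was lower than in the zones. It lay outside the 95% exact binomial interval of the positive zone share, 42.0% to 57.4%. Negative bins within 20 kb had 7.62% in convergent stretches. The 95% exact binomial interval of the negative zone share in genes, 74.4% to 86.1%, included the share of sequence. Both intervals are too narrow because they treat bins as independent.

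Counted by place instead of by bin, 8 of 100 convergent stretches centred in the zones held a positive bin, against 10 of 156 tandem and 4 of 101 divergent ones. Among stretches centred in the zones, negative bins were found in 0 convergent, 2 tandem and 2 divergent ones, too few to compare. The 12 negative tandem bins lay on 3 chromosomes, so a tandem stretch with such bins was left out of this count. The 8 were RIM4 to NPR3, ARP2 to MPS1, SPA2 to KNS1, PSR2 to YEH2, BUD22 to ERG5, RRP12 to TAF3, SUT2 to RPA135 and ATP20 to AGC1. Inside genes, 80 of 86 positive bins (93.0%) and 86 of 151 negative ones (57.0%) were in the part closer to the 3′ end. These shares count bins that are not independent and rest on few genes. Of the 80, AGC1 held 23, NPR3 17 and SPA2 15, and ERG4, listed along most of its length, held 67 of the 151.

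**Figure D5:**
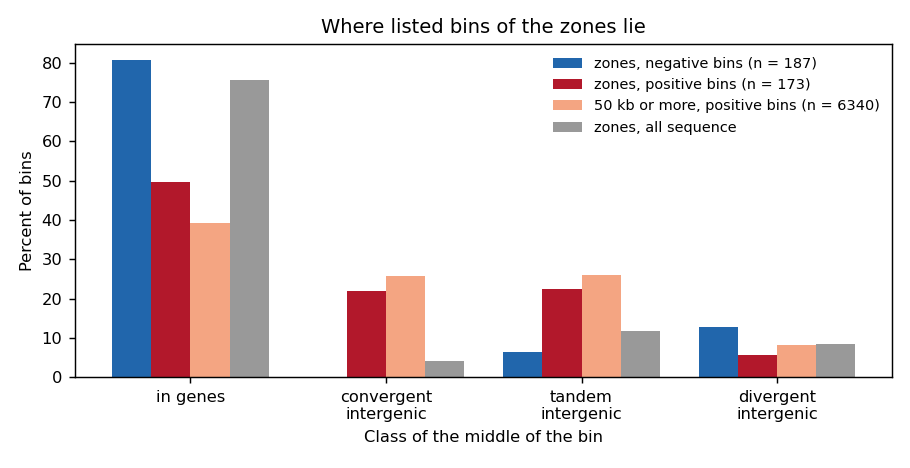
Percent of listed bins in genes and in convergent, tandem and divergent intergenic sequence, for negative and positive zone bins and for positive bins at 50 kb or more, beside the make-up of all zone sequence. Convergent stretches hold 21.97% of positive and no negative zone bins, against 4.15% of sequence. All zone sequence includes untested bins, and the make-up of the tested ones is unknown.

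Of 374 genes centred in the zones, negative bins were found in 11 (2.94%), positive bins in another 11 and no bin in 352. Of the lists of cohesin, kinetochore, centromere protection and meiotic recombination genes, 6 members lay in the zones and none held a bin. They were RAD61, which encodes the cohesin release factor, of 13 genes for cohesin and its loader, CTF19 and SPC25 of 30 kinetochore genes, SPO13, a meiosis-specific protector of centromeric cohesion, of 12 genes for centromere protection and monopolin, and SPO11 and REC107, which act in meiotic double-strand break formation, of 27 meiotic axis, synapsis and recombination genes. CTF19, the gene altered in the mutant, is 37.8 kb away from the XVI centromere, and the nearest listed zone bin was 6771 bp off. SPO11 was 2101 bp from the nearest NPR3 bin, and RAD61 2992 bp from the bin between DAD1 and KCS1. Of 24 ergosterol genes, 2 lay in the zones, ERG4 with its negative bins and ERG5 with none, 329 bp from a lone positive bin of 0.56 in the authors' deposited table (FDR 0.039). Glycolysis and gluconeogenesis genes had no member in the zones.

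Ribosomal protein genes numbered 8 in the zones, of 138, and none held a bin, while RPS11A and RPS18B had positive bins 135 and 113 bp away. Of 22 tRNA genes in the zones none held a bin, and 1, YNCJ0019C, had one within 500 bp, a negative bin 65 bp away. For such genes the table does not tell whether bins went untested or missed the threshold. The share of all zone genes with a listed bin that near is not given here. Whether these counts are unusual therefore cannot be read from them.

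Set against the next 30 kb outward, the zones held fewer positive bins on most arms. The 22 arms had 173 positive bins in the zones and 520 between 50 and 80 kb, with medians of 4 and 15.5 per arm. The zone held fewer on 16 arms, the same number on 2 and more on 4. The 4 were the right arm of II (6 against 5), the left arm of XII (30 against 7), the right arm of XII (20 against 12) and the right arm of XVI (34 against 0). The right arm of VIII had the largest deficit, with 2 zone bins against 99 between 50 and 80 kb. Depth in each stretch is unknown, and its part in these counts was not tested.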

How the data were processed

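The 1 deposited table held the authors' comparison of 3 ctf19-9A and 3 WT cultures in bins of 20 bp on build R64. Per the file headers, the authors' values are log2 fold changes (plain and shrunken), a p-value and an FDR per bin. DESeq2, deepTools 3.4.3, Bowtie2 2.5.0 and FastQC 0.11.9, with builds R64 and sacCer3, are named in the submitters' processing notes. The sources used here do not give their roles, settings or filters. Depth per sample is unknown, and tests planned for values per sample could not be made.

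Bins were placed by distance from the stated centromere positions and joined by their middle to 6431 RefSeq genes of assembly R64, with strand read from systematic names. The implied number of tested bins assumes Benjamini-Hochberg adjustment. SE is the absolute log2 fold change over the standard normal quantile that matches the p-value, two-sided. The steps were tested on simulated data. Python 3.11.15, pandas 2.3.3, scipy 1.17.1 and matplotlib 3.10.9 were used.

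The members, gene lists and rules were chosen with earlier results of these data known. Named were the 10 negative and 12 positive regions with the most bins, the regions of the 5 lowest and 8 highest bins at most 1 per 2 kb, the outermost negative and innermost positive bin of each arm, tRNA genes with a listed bin within 500 bp, and list members in the zones. Further regions are named in counts of few members.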

Additional observations from a re-analysis of the deposited data

How the results depend on the processing

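No paired analysis was possible because the table has no value for a single culture, and leaving out replicates was not possible for the same reason. Of 67 alternative values, 43 stayed within 1.5 times the main count, within the median SE of the main median, or within the 95% exact binomial interval of the main share. Some of these 43 could not move. The negative convergent share of 0 was fixed when any overlap with a gene counted and with 1 bin per region. The cut at 40 kb kept all 187 negative bins, the outermost being at 30.4 kb. A further 6 values, with the midpoint between innermost genes as the centromere, equalled the main ones by construction and check nothing. With an FDR under 0.01, 99 negative bins (0.3% of zone sequence) and 30 positive ones (0.0909%) were left. With a log2 size of at least 0.6, the shares were 0.455% negative and 0.0879% positive, with 29 positive bins. From 25 kb outward, 2 negative bins were left (0.00727%). Up to 40 kb, the negative share was 0.85%, and 63 positive bins (0.286%) were left. Without chromosome VII, 79 negative bins (0.263%) were left, and without XII the shares were 0.447% negative and 0.41% positive. Merging only bins that touch gave 29 negative and 50 positive regions, and merging up to 1000 bp gave 7 negative ones. With 1 bin per region, tandem stretches held 18.2% and divergent ones 0% of negative regions. Of positive regions, genes then held 34.5%, tandem stretches 34.5% and divergent ones 13.8%. Each of these alternatives keeps fewer bins, less sequence or other units, and why the values moved was not tested. The negative count, 187 in the main setting, was lowest from 25 kb outward and next lowest without chromosome VII. In an alternative chosen after seeing the data, the zone held fewer positive bins than the window of 80 to 110 kb on 18 arms.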

Other observations

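Chromosome XII carries related gene pairs on its opposite arms, and these had opposite signs. YEH1 and PSR1 on the left arm are paralogs of YEH2 and PSR2 on the right arm. PSR1 had 18 negative bins with a median of -0.65 at 20.9 to 21.4 kb, and PSR2 6 positive ones with a median of 0.51 at 30.3 to 30.7 kb. YEH1 had 3 negative bins with a median of -0.56, and YEH2 1 positive bin of 0.53 in the authors' deposited table. That YEH2 bin lay at 99.9% of the gene's length from the 5′ end, in the same joined region as the PSR2 bins. Both PSR genes face a neighbour. The 337 bp between SOF1 and PSR1 held no listed bin, and the 307 bp between PSR2 and YEH2 held 13 positive ones, with values from 0.46 to 0.55. The left pair lay closer to the centromere than the right pair. On each of the 22 arms the outermost negative bin within 50 kb lay inward of the innermost positive bin beyond 1 kb. The opposite signs of the pairs therefore cannot be told apart from their difference in distance. These genes were singled out after their values were seen, and no test of the difference was made.

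Cut in 3 equal parts, ERG4 had 23 bins with a median of -0.65 in the 5′ part, 21 with -0.82 in the middle and 23 with -0.89 in the 3′ part, and each part held a bin below -1.1. The median SE of bins in this region was 0.20, bins share fragments, and the difference between the parts was not tested.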
